A study of Mus musculus with 10 samples.

Results

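The genes described here build the brush border, the carpet of microvilli on the apical face of absorptive enterocytes. They are 10 genes taken by name from the 55414 gene identifiers of the count files. The rule is a list of names without a cutoff on any value, but it was drawn up with earlier results of these data known. Vil1, Ezr, Espn, Pls1, Eps8 and Myo1a encode parts of the actin core or its link to the membrane. Myo7b, Cdhr2, Cdhr5 and Ush1c encode parts of the adhesion complex between microvilli. Vil1 was included because its promoter drives the Cre recombinase of the study.

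Jejunum RNA was sequenced from male C57BL/6J mice with floxed alleles of Retsat, the gene of the retinoid enzyme retinol saturase. The control group (RetSat flox/flox villin-Cre-ERT2 (-), 5 libraries) lacked the Cre transgene and the RetSat ko group (RetSat flox/flox villin-Cre-ERT2 (+), 5 libraries) carried it. All animals of both groups received intraperitoneal tamoxifen for 5 days and were then fed high-fat chow (60 kcal% fat) for 14 weeks. Their age is not stated in these sources. The transgene drives a tamoxifen-activated Cre from the villin promoter, so recombination is aimed at the intestinal epithelium and other cells of the wall keep the gene. Only the RetSat ko group carried Cre, so loss of Retsat and presence of Cre cannot be told apart. No label says outright that every sample is its own mouse, and p-values therefore reflect only how these samples spread.

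In a microvillus, a bundle of parallel actin filaments is held together by villin, espin and plastin 1. Ezrin and the motor myosin 1a tie that bundle to the plasma membrane around it, and EPS8 sits at the tip of the bundle. At the tips, the protocadherins CDHR2 and CDHR5 bind each other across neighbouring microvilli. Inside the cell their tails are held by the scaffold harmonin, the product of Ush1c, and by the motor myosin 7b. These genes rise as enterocytes leave the crypt and mature on the villus.

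The libraries held 102844680 to 128730695 counts. Levels are given as CPM, which is counts per 1000000 counts of the TMM-adjusted library size. Retsat lay at 340.2 to 576 CPM in control and at 15.4 to 33.4 CPM in RetSat ko, so the groups did not overlap. Esr1, whose human counterpart supplies the hormone-binding domain of the Cre-ERT2 fusion, lay at 0.496 to 0.686 CPM in control and 33.3 to 45.8 CPM in RetSat ko. The tissue label was checked against region markers. Lct, the lactase gene of the upper small intestine, lay between 1376 and 3429 CPM over the 10 libraries. Fabp6, a marker of the ileum, reached at most 0.300 CPM and Slc10a2, the ileal bile acid transporter, at most 2.13 CPM. Aqp8, on the list of colon markers, lay at 11.1 to 47.9 CPM, and Car1, also on it, at 0.0345 CPM or less. The stomach marker Gkn2 had no count in any library. RetSat ko 1 stood apart from RetSat ko 2 to 5 in the genes described here, so results are given with and without it.

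Sequence upstream of the start site is shown for Vil1, since this promoter drives the Cre, and for the adhesion partners Cdhr2 and Cdhr5, whose windows held a searched motif. Promoters came from RefSeq (GRCm38.p6) and matched 8 of the 10 genes, with 10 start sites. Eps8 and Myo7b were not matched. Each window held the 250 bases before the start site. It was searched on both strands for TATAAA, which the TATA-binding protein recognises, for TTTATG, a site type of the intestinal CDX factors, for CAAAGT, which forms one side of many HNF4 sites, and for AGATAA, a site type of the GATA family. The Vil1 window, chr1:74409134-74409383 on the plus strand, is printed whole and had no match, so it holds no capitals. For Cdhr2 (chr13:54701413-54701462, plus strand) and Cdhr5 (chr7:141276790-141276855, minus strand) only the stretch around the match is shown, with the matched letters in capitals.
Vil1: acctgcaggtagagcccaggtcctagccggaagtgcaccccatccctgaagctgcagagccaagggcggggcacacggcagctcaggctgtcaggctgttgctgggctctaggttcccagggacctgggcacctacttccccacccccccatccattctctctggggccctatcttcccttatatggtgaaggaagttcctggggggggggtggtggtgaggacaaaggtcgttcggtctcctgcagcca
Cdhr2: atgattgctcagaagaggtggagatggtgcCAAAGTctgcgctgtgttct
Cdhr5: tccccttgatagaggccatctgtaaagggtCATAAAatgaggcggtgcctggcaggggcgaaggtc
The Cdhr2 capitals are CAAAGT, which began 20 bases before the start site. The Cdhr5 capitals are the reverse complement of TTTATG and began 39 bases before it. One of the 3 Espn start sites also held TTTATG on the other strand. CAAAGT was present in 12.6% and TTTATG in 10.8% of all 32851 promoter windows of this length, TATAAA in 12.4% and AGATAA in 9.99%. These matches are a description of letters only. GC content was 62.8% in the Vil1 window, against a median of 52.4% over all windows.

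Per exon length, Vil1 was the most abundant of the 10 genes and Eps8 the least. The scale for levels between genes is CPM per kilobase of the exon length over which the reads were counted. In control, Vil1 held 847 ± 93.8 CPM per kilobase (SD, n = 5) and ranked 48 among 18654 tested genes. Cdhr5 followed with 595 ± 47.2, Cdhr2 with 487 ± 38.3, Myo1a with 462 ± 39.7 and Pls1 with 432 ± 34.0 CPM per kilobase. Ezr had 280.3 ± 43.0 CPM per kilobase. A step below lay Myo7b with 87.0 ± 10.04 and Ush1c with 76.7 ± 1.89 CPM per kilobase. Espn with 35.8 ± 2.40 and Eps8 with 24.8 ± 4.62 CPM per kilobase closed the order. The control means of Vil1 and Eps8 lay 34.2-fold apart, and even Eps8 was among the top 11.5% of tested genes. Both the order and this distance depend on the counted exon length, 3551 bases for Vil1 and 12355 for Eps8. In plain CPM the control means of Eps8, Ush1c and Espn were 306, 304 and 296, with Espn the lowest of the 10 genes.

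The order held in all 10 libraries for Vil1 above Cdhr5, for Cdhr5 above Cdhr2, for Pls1 above Ezr, for Ezr above Myo7b, for Ush1c above Espn and for Espn above Eps8. For 3 pairs of neighbours the control ranges overlapped. These were Cdhr2 and Myo1a, Myo1a and Pls1, and Myo7b and Ush1c. In all 5 control libraries Cdhr2 was above Myo1a per kilobase, but over all libraries this held in 6 of 10, and Myo1a had the higher mean in RetSat ko. Myo7b was above Ush1c in 5 of 5 control libraries and in 6 of 10 in all. In the adhesion complex, the protocadherins thus had far higher transcript levels per kilobase than their motor and scaffold.

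**Figure D1:**
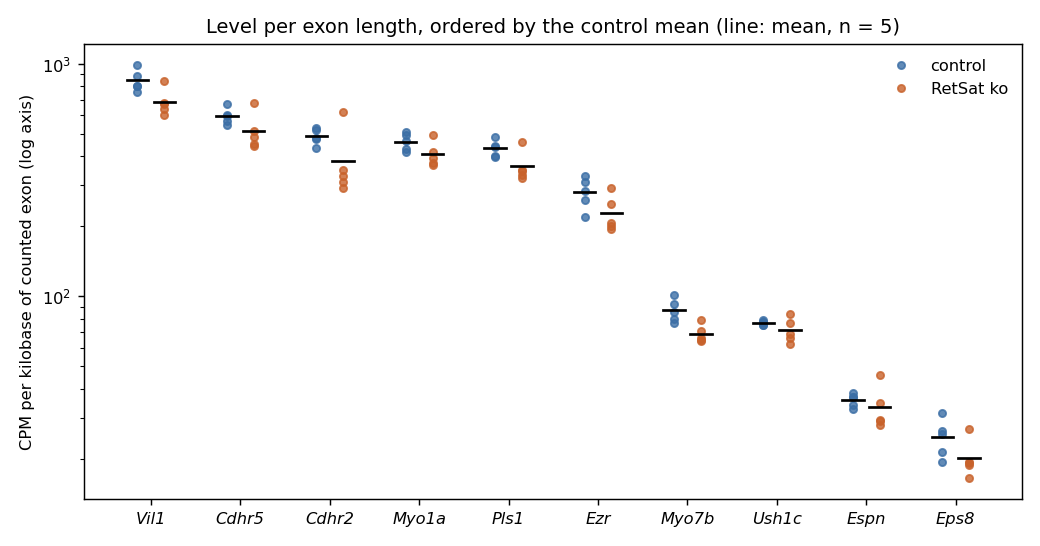
Level of each gene in CPM per kilobase of counted exon (log axis) in 5 control and 5 RetSat ko libraries, 1 point per library, with the group mean as a line. Vil1 is highest at a control mean of 847 and Eps8 lowest at 24.8.

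Between the genotypes, the log2 fold change (RetSat ko minus control) was below 0 for all 10 genes, and none passed the threshold of 0.05 by edgeR's quasi-likelihood F-test, Benjamini-Hochberg adjusted over all 18654 tested genes. In this comparison 0.0322% of all tested genes passed, 6 in number, with 0.0107% passing as lower, and 46.1% of tested genes had a log2 fold change below 0. The median over the 10 genes was -0.27, against 0.020 over all tested genes. Unadjusted p was under 0.05 for 2 of the 10 (Myo7b and Vil1), where 12.2% of all tested genes reached that. DESeq2 called none of the 10, and called 1.04% of the genes to which it gave an adjusted p. Its unadjusted p was under 0.05 for 4 of the 10 and for 2466 of all 18654 tested genes. The plain limma-voom fit called none. Its unadjusted p was under 0.05 also for 4 of the 10, and for 2299 of all 18654 tested genes. With sample weights, limma-voom called none, but all 10 had an unadjusted p under 0.05, which 22.3% of all tested genes reached, and all 10 were below 0, as 45.6% of all tested genes were. The smallest adjusted p of the 10 in that weighted fit was 0.0731. The edgeR adjusted p ran from 0.291 for Myo7b to 0.772 for Espn. On raw library totals, which moved the median of all tested genes to 0.12, all 10 were below 0 (28.6% of all tested genes) with a median of -0.18, and 3 had an unadjusted p under 0.05 (14.5% of all tested genes). In none of the 10 did all RetSat ko libraries lie below all control libraries, a pattern that 0.729% of tested genes showed. Since the tissue was sequenced whole, fewer cells of a type and less RNA per cell cannot be told apart.

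**Figure D2:**
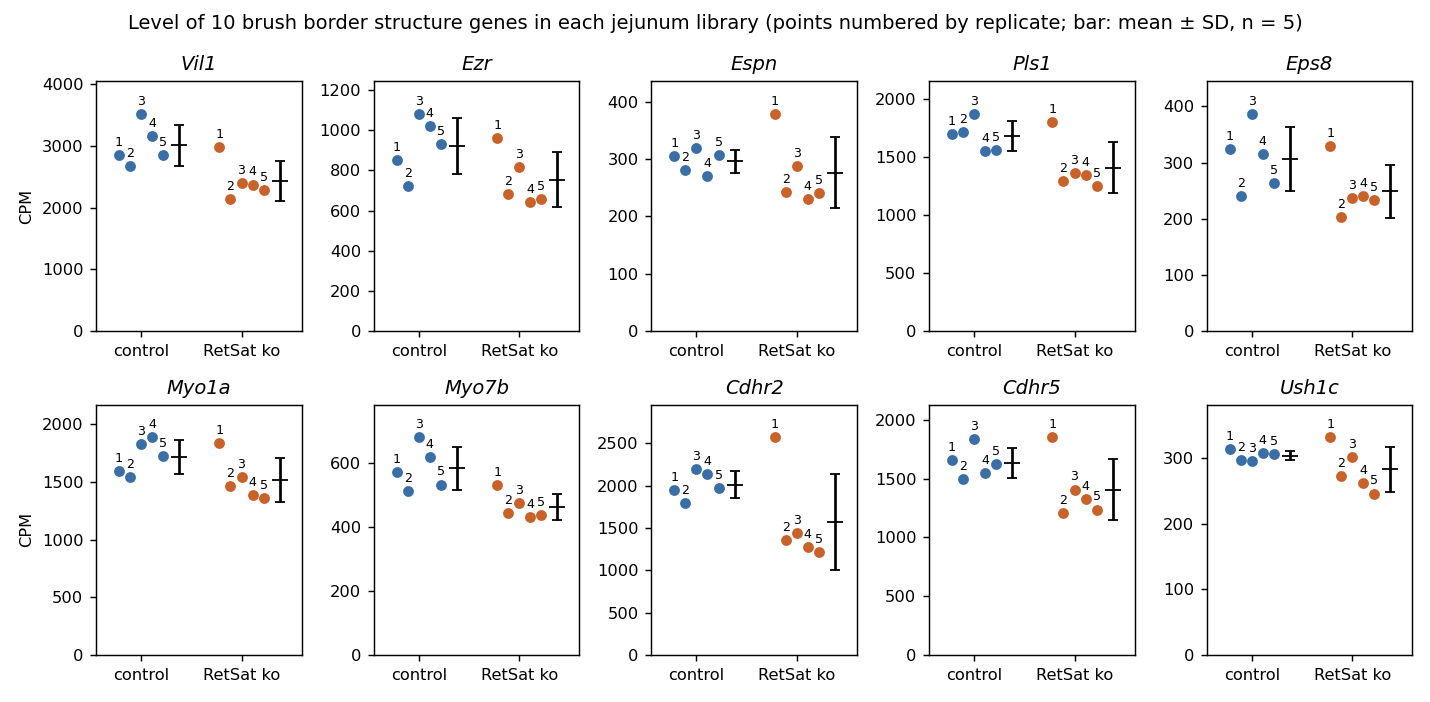
CPM of the 10 genes in each library, numbered by replicate, with the mean ± SD of 5 libraries per group beside the points; every vertical axis starts at 0. RetSat ko 1 is the highest RetSat ko library in all 10 panels, and for Cdhr2 it stands at 2569 CPM against at most 1435 CPM in RetSat ko 2 to 5.

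Among the actin bundlers, Vil1 (ENSMUSG00000026175.13, chromosome 1, 74448535 to 74474718, plus strand, GRCm39), the gene of villin, held 2854, 2673, 3517, 3152 and 2843 CPM in control 1 to 5. RetSat ko 1 to 5 held 2980.0, 2137, 2404, 2372 and 2275 CPM. RetSat ko 2 to 5 lay below every control library, and RetSat ko 1 lay inside the control range. The means were 3008 ± 333 and 2433 ± 323 CPM (SD, n = 5 each), 19.1% lower in RetSat ko. On the log2 scale the difference was -0.31 ± 0.125 (SE), with a 95% interval from -0.58 to -0.035 and an edgeR adjusted p of 0.364. The Cre transgene holds Vil1 promoter sequence, and gene counts do not separate reads of any Vil1 exon within it from those of the endogenous gene. Their part in the Vil1 value was not tested.

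Pls1 (ENSMUSG00000049493.14, chromosome 9, 95634695 to 95727364, minus strand), the gene of plastin 1, held 1699.9, 1716, 1874, 1550.2 and 1564 CPM in control 1 to 5. It held 1799 CPM in RetSat ko 1 and 1295, 1359, 1345 and 1253 CPM in RetSat ko 2 to 5. As for Vil1, only RetSat ko 1 reached the control range. Means were 1681 ± 132 and 1410.2 ± 221 CPM (SD, n = 5 each), with a log2 fold change of -0.25 ± 0.118 and an edgeR adjusted p of 0.413. Espn (ENSMUSG00000028943.19, chromosome 4, 152204788 to 152236828, minus strand), the gene of the bundling protein espin, ranged from 270.1 to 318 CPM in control. In RetSat ko 1 it was at 379 CPM, the highest of all 10 libraries, and in RetSat ko 2 to 5 at 242, 287, 230.4 and 241 CPM. Its groups overlapped also without RetSat ko 1, and its log2 fold change of -0.10 had a 95% interval from -0.38 to 0.18. That value was -0.24 without RetSat ko 1. With RetSat ko 2, 4 or 5 left out instead, it was -0.060, -0.045 and -0.058.

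Eps8 (ENSMUSG00000015766.15, chromosome 6, 137454243 to 137631874, minus strand), whose product caps and bundles actin at the microvillus tip, had control values of 324, 239.9, 387, 315 and 264 CPM, the widest spread among the 10 genes in control (18.7% of the mean, as SD). In RetSat ko it was at 329.8, 204, 236, 239.9 and 233 CPM. Control 2 lay among the RetSat ko libraries and RetSat ko 1 among the controls. The log2 fold change was -0.30 ± 0.148 (SE), with a 95% interval from -0.62 to 0.021.

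Of the links between bundle and membrane, Ezr (ENSMUSG00000052397.9, chromosome 17, 7005440 to 7050183, minus strand), the gene of ezrin, held 853, 723, 1083, 1020.0 and 933 CPM in control. In RetSat ko it held 964, 682, 819, 642 and 659 CPM. Control 2 was lower than RetSat ko 3, so the groups overlapped with or without RetSat ko 1. The means were 922 ± 141 and 753 ± 137 CPM (SD, n = 5 each), with a log2 fold change of -0.29 and a 95% interval from -0.60 to 0.015. Myo1a (ENSMUSG00000025401.10, chromosome 10, 127541039 to 127556809, plus strand), the gene of the lateral-tether motor, ranged from 1546 to 1886 CPM in control. It was at 1838 CPM in RetSat ko 1 and at 1463, 1544, 1389 and 1357 CPM in RetSat ko 2 to 5, the highest of them just under control 2. Its log2 fold change was -0.18 ± 0.112 (SE), with a 95% interval from -0.42 to 0.066.

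In the adhesion complex, Cdhr2 (ENSMUSG00000034918.9, chromosome 13, 54849274 to 54884475, plus strand), a protocadherin of the microvillus tip, had the largest negative log2 fold change of the 10 genes and also the widest spread in RetSat ko. Control 1 to 5 held 1952, 1793, 2192, 2135 and 1975 CPM. RetSat ko 1 held 2569 CPM, above every control library, and RetSat ko 2 to 5 held 1351, 1435, 1275 and 1209.8 CPM, below every control library. The SD of the RetSat ko group was 36.1% of its mean, against 7.88% in control. The log2 fold change was -0.36 ± 0.193 (SE), with a 95% interval from -0.78 to 0.061 and an edgeR adjusted p of 0.469.

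Cdhr5 (ENSMUSG00000025497.16, chromosome 7, 140848996 to 140856699, minus strand), the partner protocadherin, held 1653, 1495, 1833, 1547 and 1626 CPM in control. RetSat ko 1 again exceeded every control library with 1849.8 CPM, and RetSat ko 2 to 5 lay below all of them with 1206, 1406, 1322 and 1236 CPM. This gave a log2 fold change of -0.22 ± 0.128 (SE), with a 95% interval from -0.49 to 0.062.

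Myo7b (ENSMUSG00000024388.12, chromosome 18, 32092287 to 32170014, minus strand), the gene of the complex's motor, had the smallest p of the 10. It held 572, 513, 679, 617 and 532 CPM in control and 529, 442, 475, 431 and 435 CPM in RetSat ko. In this gene RetSat ko 1 was only just inside the control range, above control 2. The means were 583 ± 67.3 and 462 ± 41.2 CPM (SD, n = 5 each), 20.6% lower in RetSat ko. The log2 difference was -0.33 ± 0.0980 (SE), with a 95% interval from -0.55 to -0.12, an unadjusted p of 0.00516 and an adjusted p of 0.291 in edgeR.

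Ush1c (ENSMUSG00000030838.21, chromosome 7, 45844774 to 45887927, minus strand), the gene of the scaffold harmonin, was the steadiest of the 10 in control, at 314, 297, 296, 307 and 306 CPM. Its SD there was 2.46% of the mean. RetSat ko libraries spread more widely, at 331, 273, 302, 262 and 246 CPM, on both sides of the control range. Its log2 fold change was -0.10 ± 0.0844 (SE), with a 95% interval from -0.29 to 0.081. It was -0.17 without RetSat ko 1, and -0.056 when RetSat ko 5 was left out instead.

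Without RetSat ko 1, 3 of the 10 genes passed as lower in RetSat ko by the same edgeR test, here over 19001 genes. These were Cdhr2, which fell by 0.61 ± 0.0889 on the log2 scale (SE, adjusted p = 0.0216), Pls1, which fell by 0.36 ± 0.0807 (adjusted p = 0.0370), and Myo7b, which fell by 0.39 ± 0.0887 (adjusted p = 0.0383). In that fit 4.45% of all tested genes passed, and 2.5% passed as lower. The next 2 were Cdhr5 with -0.33 and Vil1 with -0.39, both with an adjusted p of 0.0516. The median of the 10 was -0.37 and all 10 had an unadjusted p under 0.05, which 23.7% of all tested genes reached. RetSat ko 2 to 5 lay below all 5 control libraries for 6 of the 10 genes (Vil1, Pls1, Myo1a, Myo7b, Cdhr2 and Cdhr5), a pattern seen in 6.22% of all tested genes. RetSat ko 1 was set aside after its values in these genes were seen, so counts without it are a description. RetSat ko 1 was the highest of all 10 libraries for Espn, Cdhr2, Cdhr5 and Ush1c. Its Retsat level of 16.8 CPM lay within the range of the other RetSat ko libraries.

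**Figure D3:**
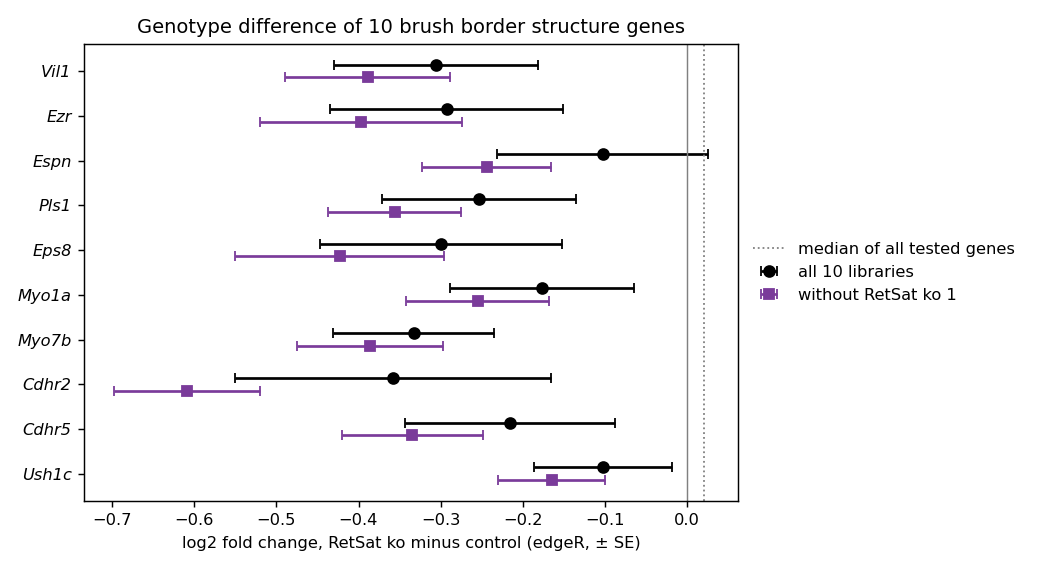
edgeR log2 fold change (RetSat ko minus control, ± SE) of each gene with all 10 libraries (circles) and without RetSat ko 1 (squares); the dotted line is the median of all tested genes. All 20 estimates lie below 0, and that of Cdhr2 moves most, from -0.36 to -0.61.

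The 10 genes varied together across libraries, but many genes outside the set followed Vil1 as closely. Averaged over the genes, log2 CPM relative to each gene's own mean was 0.12, -0.023, 0.30, 0.16 and 0.087 in control 1 to 5. It was 0.26 in RetSat ko 1 and -0.26, -0.10, -0.25 and -0.29 in RetSat ko 2 to 5. In control 3 and in RetSat ko 1 all 10 genes lay above their own mean, and in RetSat ko 2, 4 and 5 none did. The sum of absorptive enterocyte markers was likewise high in control 3 and RetSat ko 1 and low in RetSat ko 2 to 5. The summed level of 15 such markers was 77090, 62306, 85662, 57482 and 70954 CPM in control 1 to 5. It was 79654 CPM in RetSat ko 1 and 52359 to 55930 CPM in RetSat ko 2 to 5. All 15 had a log2 fold change below 0 (median -0.36), as 46.1% of all tested genes had. None passed the adjusted threshold in edgeR, and 4 had an unadjusted p under 0.05 (12.2% of all tested genes). Control 4 departed from this joint pattern, with a low enterocyte sum and a mean deviation of 0.16 for the brush border genes. Its markers were split, so the low sum does not stand for all of them. Apoa4 (10823 CPM), Apoa1, Fabp1, Fabp2, Lct and Treh were lowest of the controls in control 4. Alpi (4850 CPM), Sis, Mgam and Slc5a1 were highest of the controls there. Single markers did not all follow the sum. Anpep was lowest of all 10 libraries in RetSat ko 1 (1976 CPM). It lay at 2224 CPM in RetSat ko 2 and at 3240 to 3875 CPM in RetSat ko 3 to 5. Lct was at 1511 CPM in RetSat ko 1, inside the range of 1376 to 1872 CPM of RetSat ko 2 to 5. For the enterocyte sums a two-sided exact permutation test gave p = 0.151, adjusted to 0.375 over 18 marker lists. The part of enterocyte content in the values of the 10 genes was not tested.

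**Figure D4:**
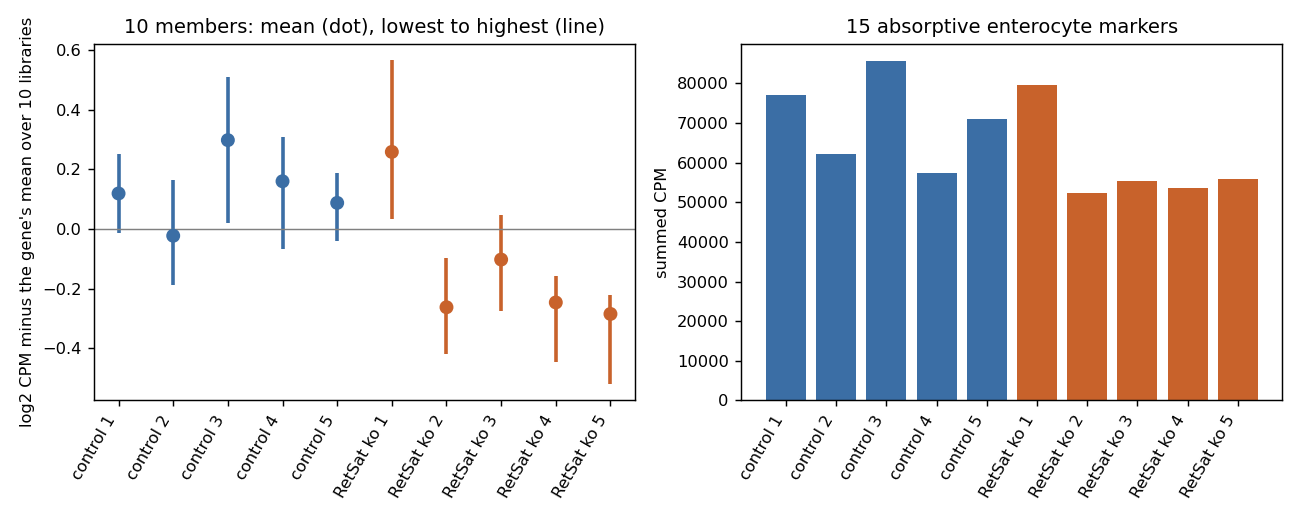
Left, mean over the 10 genes of log2 CPM minus each gene's mean over the 10 libraries (dot), with the lowest and highest gene as a line; right, summed CPM of 15 absorptive enterocyte markers, axis from 0. Control 3 and RetSat ko 1 are the 2 highest libraries in both panels.

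Markers shared by all epithelial cells went both ways. The summed level of 11 pan-epithelial genes such as Epcam, Cdh1 and Krt8 was 7706 to 8904 CPM in control and 7146 to 9686 CPM in RetSat ko, with RetSat ko 1 the highest of all. Their median log2 fold change was 0.014, with 4 of 11 below 0. Cdh1, the gene of E-cadherin, was at 693 to 784 CPM in control, at 777 CPM in RetSat ko 1 and at 608 to 680 CPM in RetSat ko 2 to 5. With the mean log2 CPM of these 11 genes as a covariate in edgeR, the median of the 10 brush border genes was -0.26 and all 10 stayed below 0, where 48.2% of all tested genes were. None passed, and 7 had an unadjusted p under 0.05, against 15.3% of all tested genes. Vil1 was at -0.30 ± 0.0833 (SE, adjusted p = 0.147) and Myo7b at -0.32 ± 0.0772 (adjusted p = 0.130 in edgeR). Goblet cell markers, 7 genes, summed to 8394 to 10197 CPM in control, to 12862 CPM in RetSat ko 1 and to 6214 to 8319 CPM in RetSat ko 2 to 5. Log2 fold changes of 6 of these 7 were below 0 (median -0.050). All 8 Paneth cell markers (median 0.83) and all 7 stem cell markers (median 0.26) were above 0, and none was called in edgeR. Unadjusted p was under 0.05 for 6 and 3 of them, where 12.2% of all tested genes reached that. The summed level of 10 cell cycle genes was 419.8 to 485 CPM in control, 419.1 CPM in RetSat ko 1 and 504 to 582 CPM in RetSat ko 2 to 5. All 10 were above 0 (median 0.30) and none passed in edgeR, while 5 had an unadjusted p under 0.05 (12.2% of all tested genes). Pancreatic acinar transcripts were uneven, at 7.89 to 251 CPM summed over 12 genes in control and 8.17 to 2778 CPM in RetSat ko, highest in RetSat ko 2. B and plasma cell markers summed to 425 to 1101 CPM in control and 556 to 1010.3 CPM in RetSat ko. All 7 tested B and plasma cell markers (median 0.94) and all 11 tested acinar markers (median 3.27) were above 0. None of them had an unadjusted p under 0.05 in edgeR, which 12.2% of all tested genes reached. The part of these cells in the result was not tested. When control 4 and 5 and RetSat ko 1 and 2, richest in acinar RNA, were left out, none of the 10 genes passed in edgeR, 7 had an unadjusted p under 0.05 (16.3% of all tested genes) and all 10 were below 0 (46.4% of all tested genes), with a median of -0.34. That fit also lacks RetSat ko 1, whose removal alone put all 10 under an unadjusted p of 0.05. When control 4 and 5 and RetSat ko 3, richest in B cell RNA, were left out, none passed either, 1 had an unadjusted p under 0.05 (5.67% of all tested genes) and all 10 were below 0 (46.7% of all tested genes), with a median of -0.29.

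Relative to Vil1 in the same library, the levels per kilobase of Ezr, Pls1, Eps8 and Myo7b differed between the genotypes by less than the SD within either group. The mean log2 ratio to Vil1 in RetSat ko minus that in control was 0.012 for Ezr, 0.046 for Pls1, 0.0093 for Eps8 and -0.021 for Myo7b. It was largest for Ush1c (0.198) and Espn (0.182), with SDs within the groups of 0.114 to 0.168 for Ush1c and 0.151 to 0.154 for Espn. For Cdhr2 it was -0.107, with an SD of 0.0608 in control and 0.284 in RetSat ko. These ratios carry no test.

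The closeness of the other 9 genes to Vil1 was described by Pearson's r of log2 CPM over the 10 libraries. These libraries share their normalization and the genotype groups, so the values carry no test. Myo7b was the closest (r = 0.958, Spearman's rho = 0.915), followed by Eps8 (r = 0.938, rho = 0.927), Cdhr5 (r = 0.913) and Ezr (r = 0.910). Espn (r = 0.699) and Ush1c (r = 0.667) were the least close. Without the 2 libraries farthest from the Vil1 median (RetSat ko 2 and control 3), r was 0.944 for Myo7b, 0.861 for Eps8, 0.645 for Espn and 0.811 for Ush1c. Over the 45 pairs among the 10 genes, r ran from 0.609 for Eps8 with Ush1c to 0.963 for Ezr with Myo1a.

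Of 13226 genes of at least 1 CPM ranked by r, the 5 closest to Vil1 outside the set were Cyfip1 (r = 0.982, rho = 0.952), Lasp1 (0.979, 0.988), Itch (0.978, 0.952), Snap23 (0.9754, 0.939) and Vps41 (0.975, 0.976). Lasp1 encodes an actin-binding adaptor and Cyfip1 a subunit of the WAVE complex, which promotes actin branching. Roles of Itch, Snap23 and Vps41 are not given here, and a shared role of the 5 was not tested. Without the same 2 libraries r lay between 0.943 and 0.972 for these 5. Their log2 fold changes ran from -0.27 for Itch to -0.14 for Vps41 and none passed in edgeR (adjusted p from 0.323 to 0.424). In the same ranking Myo7b stood at 27, Eps8 at 85, Cdhr5 at 217, Ezr at 240 and Myo1a at 377. Cdhr2 stood at 384, Pls1 at 483, Espn at 1992 and Ush1c at 2228. Many genes outside the set were thus closer to Vil1 than most of the 10 were.

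The rest of the pathway was described by a list of 41 other brush border genes in 6 roles, of which 37 could be tested. None passed the edgeR threshold in either direction, and 7 had an unadjusted p under 0.05 (12.2% of all tested genes). A log2 fold change below 0 was found in 29 of 37 (46.1% of all tested genes), with a median of -0.12. The direction count depended on the scaling, in this list as over all tested genes. On raw library totals 21 of 37 were below 0 (28.6% of all tested genes). Their median there was -0.024, against 0.12 over all tested genes. In that fit 4 had an unadjusted p under 0.05 (14.5% of all tested genes). Among 10 genes of actin bundling and control, 8 were below 0 (median -0.13). Eps8l2, an Eps8 paralog, had the smallest p of the list. It lay at 210 to 256 CPM in control and 153 to 217 CPM in RetSat ko, with a log2 fold change of -0.40 ± 0.0986 (SE, edgeR adjusted p = 0.291), and DESeq2 called it (adjusted p = 0.0392). Cobl, the actin nucleator cordon-bleu, had -0.45 ± 0.140 (SE).

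Among 9 genes of membrane linkage and ezrin control, 6 were below 0 (median -0.15). Pdzk1, an apical scaffold, had -0.30 ± 0.129 (SE), or -0.18 without control 3, and Stk10, a kinase that phosphorylates ezrin, -0.47 ± 0.235. Of the other adhesion complex genes, Anks4b, which bridges harmonin and myosin 7b, had -0.16 ± 0.0932 and Calml4, the light chain of myosin 7b, -0.016 ± 0.100. Calml4 changed sign with upper-quartile factors and with raw library totals. All 5 terminal web genes were below 0 (median -0.18), among them Myh9, a non-muscle myosin, with -0.18 ± 0.0671, and Sptan1, a spectrin, with -0.20 ± 0.0903, or -0.12 without control 4. Of 8 genes of apical membrane traffic 7 were below 0 (median -0.096). Myo5b, the motor of apical recycling, had -0.18 ± 0.0995, or -0.12 without control 3, and Pacsin2, a membrane-curving protein, -0.19 ± 0.117, or -0.12 without control 4.

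Hair cells of the inner ear build a similar complex, in part from paralogs of these genes. Of 7 such paralogs 3 could be tested. Myo7a, the paralog of Myo7b, lay at 61.9 to 76.4 CPM in control and 59.0 to 70.4 CPM in RetSat ko, with a log2 fold change of -0.10 ± 0.0702 (SE). It was -0.060 without control 3 and 0.0056 with raw library totals. Whrn, a scaffold related to Ush1c, held 4.94 to 6.62 CPM over the 10 libraries, and its log2 fold change was 0.053 ± 0.111, with -0.0010 without control 3 and 0.12 without RetSat ko 1. Myo15, Ush1g, Pcdh15 and Espnl were too low for the test. Without RetSat ko 1, 4 of 38 tested genes on the list of 41 were lower in edgeR: Eps8l2, Eps8l3, Cobl and Anks4b, with log2 fold changes of -0.49, -0.63, -0.57 and -0.25 (adjusted p from 0.0216 to 0.0453). Eps8l3, another Eps8 paralog, was chosen after its values were seen. The share of all tested genes called lower there was 2.5%.

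**Figure D5:**
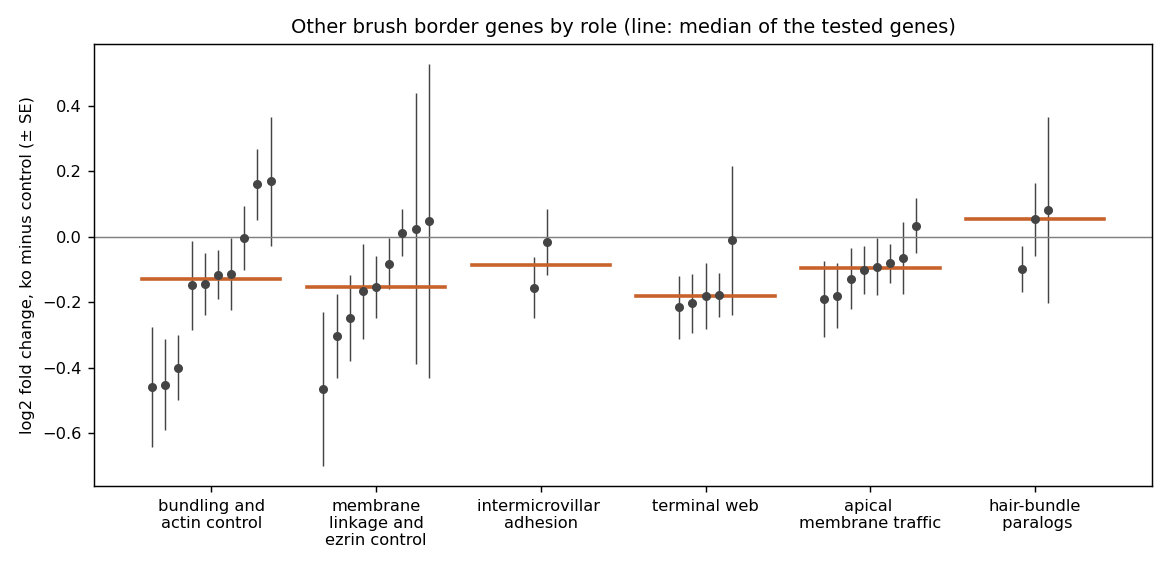
edgeR log2 fold change (RetSat ko minus control, ± SE) of the 37 tested genes on the list of other brush border genes, grouped by role, with the median of each role as a line. In 5 of the 6 roles the median is below 0, and no gene passed the adjusted threshold.

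Raw counts per library ranged from 22584 for Eps8 in its lowest library to 376216 for Vil1 in its highest, and the exact 95% Poisson interval of the lowest count reached 1.31% above it, which covers counting error only. Counting set no strand, and 3 of the 10 genes share exon bases with a gene on the opposite strand. These are Vil1 with Usp37 (49 bases), Ush1c with Gm9860 (120 bases) and Ezr with Sytl3 (4 bases). Reads in those bases were not separated by strand, and whether they were counted for either gene was not tested.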

How the data were processed

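RNA of jejunum was sequenced in 5 control and 5 RetSat ko samples, grouped by the titles in the labels. The authors deposited raw read counts for every gene, with a separate file for each library. The submitters' processing notes name Trimmomatic, STAR and GRCm39. Per the file headers, featureCounts 2.0.1 counted exons and summed them by gene identifier from GENCODE M28, with no option for strand, read pairs or several alignments. Exon bases shared by genes on opposite strands are therefore not separated by strand.

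Symbols were matched by identifier for 52081 of 55414 genes. Counts were kept with filterByExpr, normalized with TMM factors and compared in R 4.3.3 by the robust quasi-likelihood F-test of edgeR 4.0.16 with no covariates, with Benjamini-Hochberg adjustment over all tested genes and a threshold of 0.05. Intervals are from the same fit. Log2 CPM used a prior count of 2. Alternatives were RLE and upper-quartile factors, other filters, DESeq2 1.42.0, limma-voom in limma 3.58.1, plain or with sample weights, edgeR without robust estimation, a block for the replicate number, a pan-epithelial covariate and each library left out. Fits on raw library totals and without libraries rich in acinar or B cell transcripts were added after seeing the data. The steps were tested on simulated data.

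The 10 genes, the lists and the rule for other named genes were chosen with earlier results of these data known. That rule takes the 2 smallest p of each role and the 5 genes closest to Vil1.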

Additional observations from a re-analysis of the deposited data

Results flagged for a closer look

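Among 24 groups of 5 libraries checked (the CPM of the 10 genes and the summed CPM of 2 marker lists in each genotype), 4 held a library whose distance from its nearest neighbour took up more than 0.71 of the group's range. Chance alone marks about 1 in 20 groups. All 4 were the highest value of the RetSat ko group and all came from RetSat ko 1. These were Pls1 at 1799 CPM, Eps8 at 329.8 CPM, Cdhr2 at 2569 CPM and the sum of the 15 absorptive enterocyte markers at 79654 CPM. The libraries and genes vary together, so these are not independent of each other.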

How the results depend on the processing

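Under 23 alternatives, the log2 fold change of the 10 genes stayed below 0 in all 230 estimates. These estimates share the same libraries and are not independent of each other. The highest values were mostly on raw library totals (Ush1c -0.013, Espn -0.020). There the median of all tested genes moved from 0.020 to 0.12, and 28.6% of all tested genes were below 0. The number of the 10 genes called was 0 under all alternatives but 1, and 3 without RetSat ko 1, so that it ran from 0 to 3 over the fits without 1 library. For the list of 41 other brush border genes it ran from 0 to 4 over those fits, and it was 1 with DESeq2. Over all genes, 6 were called with all libraries, 123 with DESeq2, 10 with sample weights in limma-voom, and 5 to 846 without 1 library, the highest without RetSat ko 1. The cause of these differences was not tested. Calml4 turned positive with upper-quartile factors (0.0021), on raw library totals (0.074) and without 1 of 5 libraries, and ran from -0.10 (without RetSat ko 1) to 0.021 over the fits without 1 library. Myo7a did so on raw library totals (0.0056), and Whrn turned to -0.0010 without control 3. The mean Ush1c level in control moved by more than its SD on raw totals, to 294 CPM. Same-numbered libraries did not deviate together (r from -0.184 to 0.018), and the replicate block gave 4 calls over all genes and 0 among the 10 genes.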
